A study of Mus musculus with 12 samples.

Results

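The 5 genes described here mark horizontal cells of the retina: the transcription factor genes Lhx1, Onecut1 and Onecut2, the calbindin gene Calb1 and the connexin gene Gja10. They were chosen by name as markers of this cell type, with earlier results of these data known, and no measured value entered the rule. Each symbol matched 1 Ensembl gene of the 36131 in the table (ENSMUSG00000018698, ENSMUSG00000043013, ENSMUSG00000045991, ENSMUSG00000028222 and ENSMUSG00000051056, in the order above). All 5 passed the filter on low counts, among 16489 genes that did.

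Horizontal cells are inhibitory interneurons of the outer retina that contact photoreceptors and feed back onto them. They are coupled to each other by gap junctions, through which they pool light signals over a wide area. Their fate is set by a cascade of transcription factors that includes Foxn4, Ptf1a, the Onecut factors and Lhx1. Mature cells are filled with the calcium buffer calbindin.

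RNA-seq was run on retinas of C57BL/6J wildtype mice at P18, with 1 library per mouse and 4 mice per group. RA-PBS mice (animals 1 to 4) stayed in room air, while O2-PBS mice (animals 5 to 8) and O2-IC100 mice (animals 9 to 12) were kept in 75% O2 from P7 and returned to room air at P12, a regimen that produces oxygen-induced retinopathy. O2-IC100 mice received IC100, a humanized antibody against the inflammasome adaptor ASC, at 10 µg/g on P12, P14 and P16, and the other groups received PBS as placebo. The labels give the injections as intraperitoneal, whereas the study's vascular experiments describe PBS given into the vitreous, and no sequenced group combined room air with IC100. Whole retinas were homogenized, so fewer horizontal cells and less RNA per horizontal cell cannot be told apart in these values. The labels do not give sex or litter.

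Total expected counts per retina were between 14907143 and 24438082. Crystallin genes, which mark lens, took 58.98% of the counts of O2-IC100 animal 10 (exact 95% binomial interval 58.96 to 59.00, counting error only). In the other 3 O2-IC100 retinas this share was 0.00407 to 0.00855%, in O2-PBS retinas 0.00303 to 0.0158%, and in RA-PBS animals 1 to 4 it was 0.00315, 1.25, 4.50 and 1.44%. The summed level of 4 Y-linked genes was 239 to 372 CPM in RA-PBS animals 1 to 3, O2-PBS animal 8 and O2-IC100 animals 9, 11 and 12, and 1.32 to 10.9 CPM in RA-PBS animal 4, O2-PBS animals 5 to 7 and O2-IC100 animal 10. Results are therefore given for all 12 libraries and for the 11 without animal 10. Levels below are CPM, counts relative to library size after TMM scaling over all 12 libraries. A gene is called where edgeR's two-sided quasi-likelihood test met the study's thresholds, which are 1.5-fold or more, p below 0.05, and p after Benjamini-Hochberg adjustment below 0.1.

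The 5 genes were found in every library, with Calb1 far above the others. Per kilobase of exon, Calb1 stood at 21.0 ± 5.64 CPM in RA-PBS (SD, n = 4). Lhx1, Onecut1 and Gja10 lay close together at 2.07 ± 0.988, 1.95 ± 0.503 and 1.66 ± 0.214 CPM per kilobase, within their spread, and Onecut2 was lowest at 0.700 ± 0.182 CPM per kilobase. Outside animal 10 the 3 transcription factor genes were counted 92 to 296 times per library, Calb1 926 to 2398 times and Gja10 24 to 74 times.

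In animal 10 all 5 were at a small part of their level in the other treated retinas. Lhx1 was at 9.33% of the mean of animals 9, 11 and 12, Onecut1 at 10.3%, Onecut2 at 23.4%, Calb1 at 12.2% and Gja10 at 7.98%. The median gene with at least 1 CPM was at 94.6%, but markers of other retinal neurons were as low, with the cone genes Arr3 and Opn1sw at 7.10% and 8.70% and the bipolar cell gene Vsx1 at 7.74%. Gja10 rested there on 2 counts, for which an exact Poisson interval is 0.242 to 7.22 counts.

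**Figure D1:**
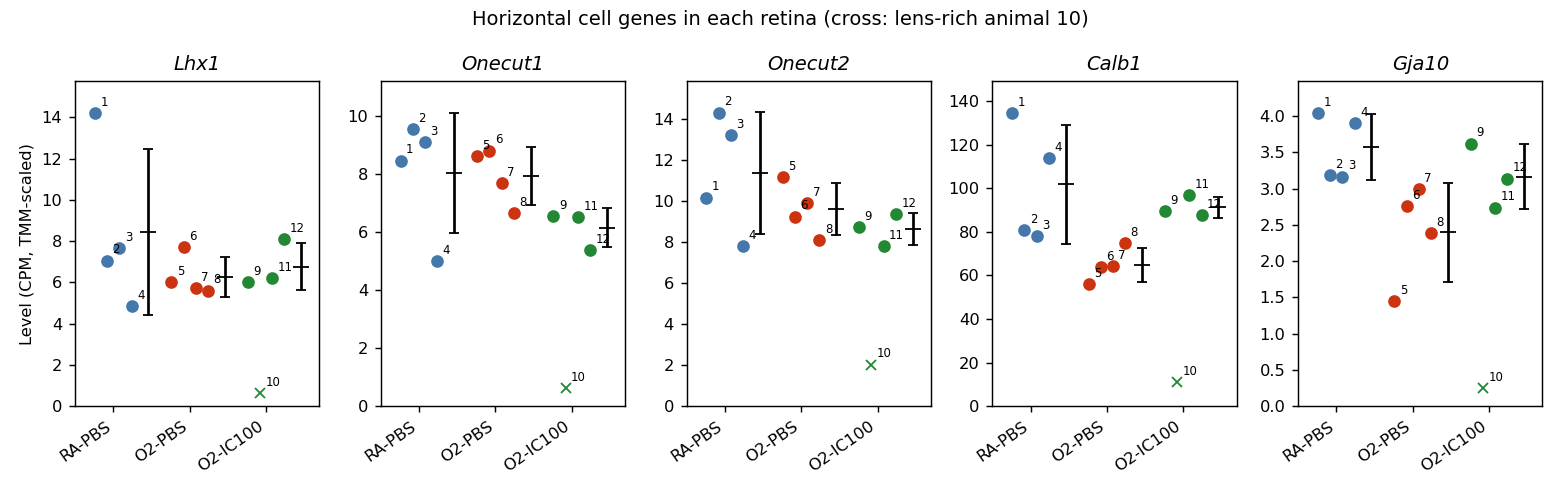
Level of each horizontal cell gene (vertical axes, TMM-scaled CPM, each starting at 0) in each retina of the RA-PBS, O2-PBS and O2-IC100 groups, with points numbered by animal, crosses for animal 10, and black bars for mean ± SD without it. Calb1 lies at 77.8 to 134.5 CPM in RA-PBS and at 55.8 to 74.7 CPM in O2-PBS, while RA-PBS and O2-PBS overlap for the 3 transcription factor genes.

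Lhx1 encodes a LIM homeodomain factor that places horizontal cells in their layer. Its level was 14.2, 7.05, 7.66 and 4.84 CPM in RA-PBS, 6.03, 7.72, 5.71 and 5.60 CPM in O2-PBS, and 6.02, 0.631, 6.19 and 8.09 CPM in O2-IC100, in order of animal number. The groups overlapped, and RA-PBS animal 1 alone stood above 10 CPM. The mean was 8.44 ± 4.02 CPM in RA-PBS, 6.26 ± 0.985 CPM in O2-PBS and, without animal 10, 6.77 ± 1.15 CPM in O2-IC100 (SD, n = 4, 4 and 3).

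Onecut1 encodes a cut-homeodomain factor needed to form horizontal cells, and ganglion cells use it too. Its level was 8.47, 9.56, 9.10 and 5.00 CPM in RA-PBS, 8.62, 8.81, 7.69 and 6.65 CPM in O2-PBS, and 6.55, 0.631, 6.53 and 5.39 CPM in O2-IC100. RA-PBS and O2-PBS covered much the same range, and every O2-IC100 retina lay below every O2-PBS retina. Means were 8.03 ± 2.07, 7.94 ± 0.991 and, without animal 10, 6.16 ± 0.661 CPM.

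Onecut2, its close relative in the same cells, was at 10.2, 14.3, 13.2 and 7.79 CPM in RA-PBS, 11.2, 9.23, 9.89 and 8.09 CPM in O2-PBS, and 8.73, 2.02, 7.78 and 9.36 CPM in O2-IC100. All groups overlapped, with RA-PBS animals 2 and 3 highest and RA-PBS animal 4 at the low end. Means were 11.4 ± 2.96, 9.59 ± 1.28 and, without animal 10, 8.62 ± 0.799 CPM.

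Calb1 encodes calbindin-D28k, a calcium buffer of horizontal cells that some amacrine and ganglion cells also contain. Its level was 134.5, 80.6, 77.8 and 113.9 CPM in RA-PBS, 55.8, 63.7, 64.2 and 74.7 CPM in O2-PBS, and 89.4, 11.1, 96.8 and 87.6 CPM in O2-IC100. Every O2-PBS retina lay below every RA-PBS retina, and animals 9, 11 and 12 lay between the lower and the upper pair of RA-PBS. The order of the means was RA-PBS (101.7 ± 27.3 CPM), O2-IC100 without animal 10 (91.3 ± 4.85 CPM) and O2-PBS (64.6 ± 7.75 CPM), of which the first and second overlapped.

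Gja10 encodes connexin 57, a gap junction protein found in the mouse retina in horizontal cells. Its level was 4.04, 3.19, 3.16 and 3.90 CPM in RA-PBS, 1.45, 2.76, 3.00 and 2.38 CPM in O2-PBS, and 3.62, 0.252, 2.74 and 3.14 CPM in O2-IC100. O2-PBS lay wholly below RA-PBS, with animal 5 lowest at 24 counts (exact Poisson interval 15.4 to 35.7 counts), while O2-IC100 overlapped both. Means were 3.57 ± 0.461, 2.40 ± 0.682 and, without animal 10, 3.16 ± 0.443 CPM.

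The region before the start of transcription was compared to see what letters these genes share. RefSeq promoter entries (build GRCm38.p6) were found for Lhx1, Onecut1 and Gja10, and Calb1 and Onecut2 had none. The 250 bases before each start are shown because all 3 hold the letters TGACGTC on one strand, set in capitals (GACGTCA where the printed strand holds the reverse complement). Each is printed 5′ to 3′ on the strand of its gene.
Lhx1: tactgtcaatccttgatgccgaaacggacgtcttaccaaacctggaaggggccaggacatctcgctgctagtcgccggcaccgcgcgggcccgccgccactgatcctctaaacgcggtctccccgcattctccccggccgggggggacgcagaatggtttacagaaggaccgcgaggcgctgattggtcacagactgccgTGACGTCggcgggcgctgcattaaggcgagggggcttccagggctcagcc
Onecut1: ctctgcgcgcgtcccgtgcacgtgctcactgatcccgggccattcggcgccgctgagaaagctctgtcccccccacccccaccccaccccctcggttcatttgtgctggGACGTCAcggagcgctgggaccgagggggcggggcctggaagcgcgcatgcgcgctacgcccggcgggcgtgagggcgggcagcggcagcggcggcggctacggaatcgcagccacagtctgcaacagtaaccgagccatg
Gja10: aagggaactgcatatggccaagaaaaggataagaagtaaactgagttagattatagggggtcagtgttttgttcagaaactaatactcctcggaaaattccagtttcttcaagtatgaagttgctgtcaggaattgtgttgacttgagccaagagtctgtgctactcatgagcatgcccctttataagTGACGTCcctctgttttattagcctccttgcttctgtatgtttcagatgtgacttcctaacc
The capitals lie 50 to 44 bases before the start in Lhx1 (chr11:84525535-84525784, minus strand), 141 to 135 bases before it in Onecut1 (chr9:74861671-74861920, plus strand) and 62 to 56 bases before it in Gja10 (chr4:32602383-32602632, minus strand). Of 32851 promoter windows of the same length, 2.78% held TGACGTC on either strand. It was picked after 13 motifs had been searched on both strands. The full 8-letter cAMP response element TGACGTCA, which contains these letters, was in 0 of the 3 windows and in 1.55% of all windows. The shorter TGACGT, which they contain, was in all 3 windows and in 6.47% of all windows. The Onecut core ATCAAT was in 0 of the 3 windows and in 6.72% of all windows, and its variant ATCGAT was in 0 of the 3 and in 0.728% of all. The homeodomain core TAATTA was found in 0 of the 3 windows and in 4.84% of all windows. The photoreceptor factor core TAATCC was in 0 of 3 and in 6.25%. Of the E-boxes, CAGGTG was in 0 of the 3 windows and in 17.2% of all, while CAGATG was in the window of Gja10 alone and in 14.4% of all. The AP-1 site TGACTCA was in 0 of the 3 windows and in 4.46% of all windows. The hypoxia response core ACGTG was in the window of Onecut1 alone and in 16.6% of all windows. The TATA box TATAAA was in the window of Gja10 alone and in 12.4% of all windows. The core CAAT, which also lies within ATCAAT, was in the windows of Lhx1 and Gja10 and in 68.7% of all windows. A match describes letters, and no binding was measured here.

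The comparison of O2-PBS with RA-PBS asks what hyperoxia followed by room air did to these genes. With all 12 libraries, 0 of the 5 were called, against 0.807% of all tested genes (133 of 16489), and 0 had an unadjusted p under 0.05 (edgeR quasi-likelihood test), which 7.12% of all tested genes had. DESeq2 on the same libraries called 0 of the 5 and 412 genes. Calb1 and Gja10 were lower with no overlap between the groups, which 6.63% of all tested genes were.

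Without animal 10, Calb1 was the only one of the 5 that was called, and it was lower after hyperoxia. Its log2 fold change was -0.66 (SE 0.16, 95% interval -0.998 to -0.315), a fold of 0.634, with an adjusted p of 0.0219 by edgeR's quasi-likelihood test, against 0.9995 with all 12 libraries. In this fit 6.27% of all tested genes were called and 2.18% were called lower. Calb1 and Gja10 were the 2 of the 5 with an unadjusted p under 0.05, as had 21.9% of all tested genes, and the 2 that lay wholly below RA-PBS, as did 6.48%. The estimate itself was -0.65 with all 12 libraries, with an interval of -1.70 to 0.39. Animal 10 belongs to neither group of this comparison and entered it through the shared scaling, filter and estimate of spread. A fit of the 8 RA-PBS and O2-PBS libraries alone gave -0.67 with an adjusted p of 0.0570 and also called Calb1.

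The call on Calb1 depended on RA-PBS animal 1, which had its highest level. With animals 10 and 1 both left out the log2 fold change was -0.49 (adjusted p = 0.0502 by edgeR), short of 1.5-fold and not called. Leaving out animal 10 and each other library in turn kept the call in 10 of 11 fits, with log2 fold changes of -0.76 to -0.49.

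Lens RNA, Y-linked RNA, GC content and markers of other neurons were unevenly spread over these libraries. Within RA-PBS, Calb1 was at 134.5 CPM in animal 1 (0.00315% crystallin) and 80.6 CPM in animal 2 (1.25%). It was at 113.9 CPM in animal 4 (1.44%) and 77.8 CPM in animal 3 (4.50%). The part of lens RNA in these Calb1 values was not tested. With animals 3 and 10 left out the log2 fold change of Calb1 was -0.76 (adjusted p = 0.00518, edgeR). With Y-linked RNA as a covariate and animal 10 left out it was -0.64 (adjusted p = 0.0678, edgeR). The longest Calb1 transcript has 36.8% GC, at percentile 1.75 of the tested genes, and a correction for GC content and length gave -0.72 (adjusted p = 0.0483, edgeR). Calb1 was called in these 3 fits.

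Calb1 is also used by some ganglion and amacrine cells. Ganglion cell markers summed to 1054 to 1508 CPM in RA-PBS and 844 to 915 CPM in O2-PBS, while amacrine cell markers summed to 434 to 698 CPM and 393 to 449.8 CPM. Nefl had the highest level of the ganglion cell list, with means of 540 CPM in RA-PBS and 352 CPM in O2-PBS. Rbpms averaged 26.7 and 27.3 CPM in these groups, and Pou4f2 8.51 and 8.17 CPM. Without animal 10, 10 of the 11 ganglion cell estimates were negative. Both lists, of 11 and 8 genes, had 0 genes at 0 in these libraries, and their part in the Calb1 result was not tested.

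The other 4 genes were not called in this comparison. Gja10 had a log2 fold change of -0.57 without animal 10 (95% interval -1.07 to -0.07, adjusted p = 0.163), so that a fall of more than 1.5-fold and one close to 0 both lie in its interval. Lhx1 was at -0.43 (-1.01 to 0.15, adjusted p = 0.386) and Onecut2 at -0.25 (-0.62 to 0.13, adjusted p = 0.456). Onecut1 was at -0.02 (-0.42 to 0.39, adjusted p = 0.971), the smallest difference of the 5. The 5 estimates were all negative, with a median of -0.43 beside -0.0066 over all tested genes.

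**Figure D2:**
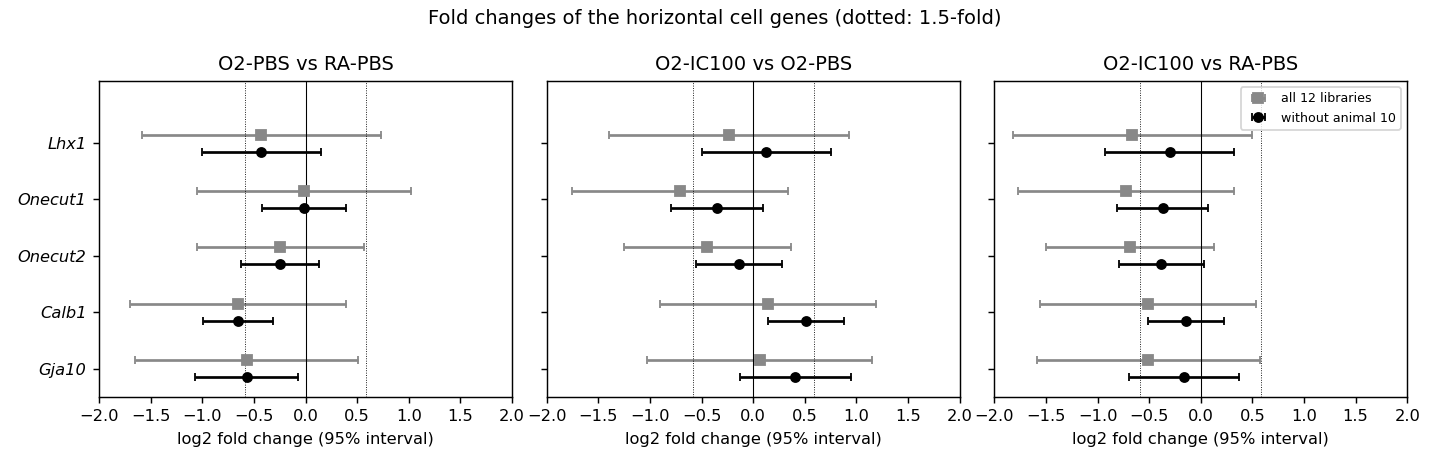
Log2 fold change of each horizontal cell gene (points, with 95% intervals) in the 3 comparisons, from all 12 libraries (grey squares) and without animal 10 (black circles), with dotted lines at 1.5-fold in either direction. Leaving out animal 10 narrows the interval of Calb1 in O2-PBS vs RA-PBS from -1.70 to 0.39 down to -0.998 to -0.315.

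O2-IC100 was compared with O2-PBS to ask whether treated retinas differed from placebo retinas after the same oxygen exposure. With all 12 libraries 0 of the 5 genes were called, as were 0% of the tested genes (edgeR, with 2784 genes, 16.9%, at an unadjusted p under 0.05 and 113 called by DESeq2). None of the 5 had an unadjusted p under 0.05 in edgeR, and DESeq2 called 0 of them. Onecut1 alone lay wholly below O2-PBS, as did 10.7% of the tested genes. Without animal 10 the count was again 0 of 5, against 0.947% of the tested genes, and 1 of 5, Calb1, had an unadjusted p under 0.05, against 19.2%.

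Calb1 had a log2 fold change of 0.51 in O2-IC100 against O2-PBS without animal 10 (95% interval 0.15 to 0.88), a fold of 1.43. By edgeR's quasi-likelihood test its adjusted p was 0.170. Animals 9, 11 and 12 all lay above the 4 O2-PBS retinas, a separation in this direction seen in 19.4% of all tested genes. A fit of these 7 libraries alone gave 0.50 with an adjusted p of 0.00125, and DESeq2 without animal 10 gave 0.50 with an adjusted p of 0.0761. Both stayed under 1.5-fold. With animal 10 kept, the log2 fold change was 0.14 (-0.90 to 1.19). The GC and length correction gave 0.39 (adjusted p = 0.417, edgeR), and the Y-linked covariate 0.49 (adjusted p = 0.222, edgeR). All 3 of these O2-IC100 retinas and 1 of the 4 O2-PBS retinas had high Y-linked RNA.

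Onecut1 was at -0.35 without animal 10 (-0.80 to 0.09, adjusted p = 0.350), the only one of the 5 that lay wholly below O2-PBS, as 16% of all tested genes did. The fit of these 7 libraries alone gave -0.37 with an adjusted p of 0.0788, under 1.5-fold. Gja10 was at 0.41 (-0.13 to 0.95, adjusted p = 0.367). Lhx1 was at 0.13 (-0.50 to 0.75, adjusted p = 0.831) and Onecut2 at -0.14 (-0.55 to 0.27, adjusted p = 0.704). Estimates of the horizontal cell genes thus fell on both sides of 0, with Calb1 and Gja10 above it and both Onecut genes below. In the GC and length correction Onecut2 moved to 0.087, and with animal 10 kept Lhx1 was at -0.24.

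O2-IC100 and RA-PBS share no library, but each shares its own with 1 of the comparisons above, so these values are not independent of them. Of the 5 genes 0 were called with all 12 libraries, beside 0% of the tested genes (edgeR, with 2183 genes, 13.2%, at an unadjusted p under 0.05 and 285 called by DESeq2), and 0 without animal 10, beside 1.56%. None of the 5 had an unadjusted p under 0.05 in either edgeR fit, which 15.6% of genes had without animal 10, and DESeq2 called 0 of them.

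Without animal 10 all 5 estimates were negative. Calb1 was at -0.14 (-0.51 to 0.22) and Gja10 at -0.16 (-0.69 to 0.37), the closest to 0 of the 5. Onecut2 was at -0.38 (-0.79 to 0.03), Onecut1 at -0.37 (-0.81 to 0.07) and Lhx1 at -0.30 (-0.92 to 0.32). Adjusted p-values were 0.357 to 0.795 (edgeR quasi-likelihood test).

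The counts of Calb1 were also set against those of each transcription factor gene in the same library, a ratio that needs no scaling between libraries. These ratios were chosen after the levels had been seen and are given without a test. Calb1 to Onecut1 was 15.9, 8.43, 8.57 and 22.8 in RA-PBS, 6.48, 7.25, 8.35 and 11.3 in O2-PBS, and 13.7, 17.6, 14.8 and 16.2 in O2-IC100. Animals 9, 11 and 12 lay above all 4 O2-PBS retinas, which already follows from their levels of the 2 genes, and RA-PBS animals 2 and 3 lay among the O2-PBS retinas. The value of animal 10 rests on 5 counts of Onecut1 (exact Poisson interval 1.62 to 11.7 counts) and was not set against the others. Calb1 to Onecut2 was 13.3, 5.65, 5.90 and 14.6 in RA-PBS, 5.01, 6.90, 6.51 and 9.23 in O2-PBS, and 10.3, 5.49, 12.4 and 9.38 in O2-IC100. Here animals 9, 11 and 12 lay above all O2-PBS retinas, as did RA-PBS animals 1 and 4. RA-PBS animals 2 and 3 and O2-IC100 animal 10 lay among the O2-PBS retinas. Calb1 to Lhx1 overlapped across the 3 groups, at 9.48 to 23.5 in RA-PBS, 8.26 to 13.3 in O2-PBS and 10.8 to 17.6 in O2-IC100.

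**Figure D3:**
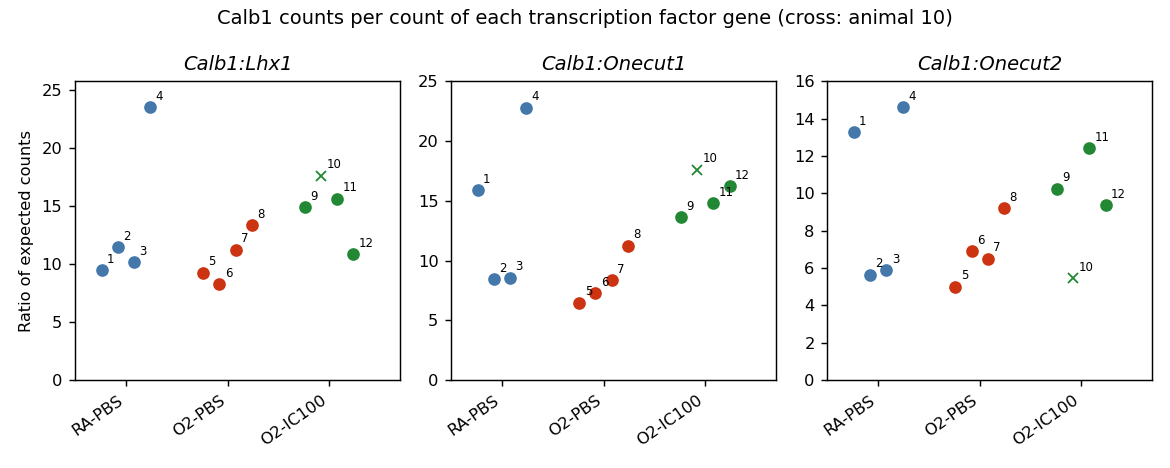
Ratio of Calb1 expected counts to those of Lhx1, Onecut1 and Onecut2 (vertical axes, starting at 0) in each retina by group, with points numbered by animal and a cross for animal 10. Calb1 to Onecut1 is 13.7 to 16.2 in O2-IC100 animals 9, 11 and 12 and 6.48 to 11.3 in O2-PBS, while RA-PBS spreads from 8.43 to 22.8.

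Across the 11 libraries without animal 10 the 5 genes did not vary as a single block. Pearson's r of log2 CPM was 0.77 between Calb1 and Gja10 and 0.76 between Onecut1 and Onecut2, and -0.41 between Calb1 and Onecut1. The other 7 pairs lay between -0.29 and 0.42. These points share scaling factors and the groups' differences, so the values are a description of n = 11 libraries.

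The genes most like each of the 5 over these libraries were picked from 15144 with at least 1 CPM on average. For Lhx1 they were Tshz1, Ap1m1 and Scly (r = 0.92, 0.91 and 0.90), and for Onecut1 they were Sart3, Mapkbp1 and the kinase gene Mtor (0.97, 0.97 and 0.96). Onecut2 was followed most closely by the postsynaptic scaffold gene Shank1, Nwd1 and the potassium channel gene Kcnh6 (0.97, 0.96 and 0.95). Calb1 ran closest to Ndufaf1, an assembly factor of respiratory complex I, Rd3l and the proton pump subunit gene Atp6v1b2 (each 0.99). For Gja10 they were Mettl7a1, Cul4b and Hnrnph3 (0.92, 0.91 and 0.90).

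Other genes of the horizontal cell programme were below 1.5-fold in O2-PBS vs RA-PBS without animal 10. Of 9 specification genes, Foxn4 and Ptf1a did not pass the filter, 0 of the other 7 were called, and 2 were lower by adjusted p alone, beside 6.42% of all tested genes. The list's median log2 fold change was -0.28. Pax6, a retinal progenitor and amacrine cell factor kept in horizontal cells, was at -0.32 (adjusted p = 0.0184), and Prox1, a homeodomain factor of horizontal cells, at -0.40 (adjusted p = 0.0562). Pax6 was at 326 ± 20.2 CPM in RA-PBS and 261 ± 6.48 CPM in O2-PBS with no overlap, and Prox1 overlapped. Prox1 was at 538% in lens-rich animal 10 relative to animals 9, 11 and 12, and RA-PBS animals 2 to 4 held more crystallin counts than any O2-PBS retina. The part of lens RNA in its value was not tested. Of 9 further genes reported in horizontal cells 0 were called and 3 were lower by adjusted p alone, with a median of -0.21. Septin4, a cytoskeletal GTPase gene, was at -0.42 (adjusted p = 0.0451) and the anion exchanger gene Slc4a3 at -0.51 (adjusted p = 0.0263, all edgeR).

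The relatives of Calb1, 6 genes for calcium-binding proteins of retinal neurons, had a median of -0.50 in that comparison, and all 6 estimates were negative. Scgn, which encodes secretagogin of cone bipolar cells, was the 1 gene called, at -0.76 (adjusted p = 0.0209), with 66.5 ± 21.1 CPM in RA-PBS and 39.2 ± 4.02 CPM in O2-PBS. Its groups overlapped. By adjusted p alone 4 of the 6 were lower. In O2-IC100 vs O2-PBS without animal 10 the 6 had a median of 0.32 and 0 were called, and 5 of 6 lay wholly above O2-PBS, beside 19.4% of all tested genes. Scgn was at 0.49 there (adjusted p = 0.222).

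Among the connexin and pannexin genes, Gja3, which encodes a connexin of the lens, was called lower in O2-PBS (-7.51, adjusted p = 0.0347, edgeR). Gja3 was at 0 to 53.0 CPM in RA-PBS and 0 to 0.313 CPM in O2-PBS, and it moves with the lens list of 21 genes, which summed to 13.2 to 41539.5 CPM in RA-PBS and 11.3 to 118.8 CPM in O2-PBS. All 20 tested lens genes were called lower in O2-PBS, with a median of -8.93, among them Cryge, Crygd, Crygs and Crybb2 at -9.25, -9.25, -9.23 and -9.20. The part of lens RNA in the Gja3 value was not tested. The median of the 7 gap junction genes was -0.20.

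Lists of other retinal cells showed where the horizontal cell genes stood. In O2-PBS vs RA-PBS without animal 10 the medians were -0.39 for 8 amacrine cell genes (0 called), -0.40 for 11 ganglion cell genes (1 called), -0.32 for 7 bipolar cell genes (1 called) and -0.52 for 6 Müller glia genes (2 called lower and 1 higher). For 8 rod genes and 8 cone genes the medians were 0.0074 and -0.016, with 0 called in either. The median of the 5 horizontal cell genes, -0.43, lay among those of the inner retina. No test compared the lists.

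Called genes of these lists were the neurofilament gene Nefl (-0.62, adjusted p = 0.00659), the bipolar cell factor Vsx1 (-0.77, adjusted p = 0.00333), the retinoid carrier gene Rlbp1 (-0.61, adjusted p = 0.0131), the potassium channel gene Kcnj10 (-0.63, adjusted p = 0.00837) and the glial factor Sox9, which was higher (0.77, adjusted p = 0.0121, all edgeR). Gnat1 of rods was at -0.043, and Opn1sw and Arr3 of cones at 0.26 and -0.39. In O2-IC100 vs O2-PBS only the water channel gene Aqp4 of these lists was called (0.66, adjusted p = 0.0823), and in O2-IC100 vs RA-PBS the glycine transporter gene Slc6a9 (-0.66, adjusted p = 0.0709), the neurofilament gene Nefh (-0.73, adjusted p = 0.0102) and the bipolar cell channel gene Trpm1 (-0.59, adjusted p = 0.0994) were called lower.

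**Figure D4:**
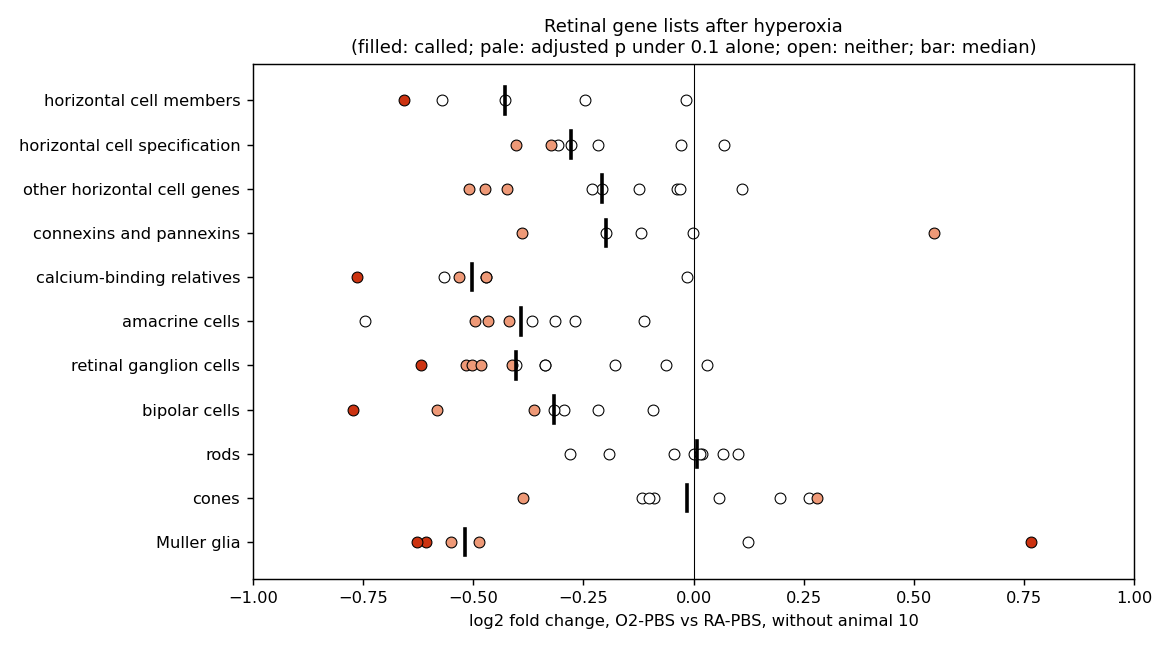
Log2 fold change of each tested gene (points) in O2-PBS vs RA-PBS without animal 10, by list (vertical axis), with filled points for called genes, pale points for an adjusted p under 0.1 alone, open points for neither, and bars for medians over all tested genes of a list. Calb1 at -0.66 is the 1 called horizontal cell gene, the lens list is left out, and values beyond the axis, such as Gja3 (-7.51), are not drawn.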

How the data were processed

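RNA of whole retinas was sequenced (polyA-selected, paired-end) in 12 mice, and groups were taken from the labels. The authors mapped reads to the GRCm39 mouse transcriptome with Kallisto and summed transcripts per gene with tximport. The authors deposited the resulting expected counts per gene, with no normalization, and 42.2% of them are not whole numbers. They were rounded before edgeR 4.0.16 was run in R 4.3.3 (TMM, filterByExpr, robust quasi-likelihood fit, two-sided tests, Benjamini-Hochberg over all tested genes). One model held the 3 groups without covariates, where the authors used DESeq2. The fit without animal 10 was scaled anew (16688 tested genes), while levels printed as CPM come from all 12 libraries. No 2 libraries of a group agreed within sampling noise (chi-square per degree of freedom at least 3.56 over 18 pairs). Each p-value sets a difference between groups against the spread between mice, which edgeR estimates with information shared across genes. The smallest share that 3 counts could show was 1.23e-05 to 2.01e-05% of a library.

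The 5 genes, the other gene lists and the emphasis on the fit without animal 10 were chosen with earlier results of these data known. Genes named besides the 5 are, for each list, up to 4 that were called in any comparison by largest change, or else the 2 of highest mean CPM, and for each of the 5 the 3 genes of highest Pearson r. Foxn4 and Ptf1a are named as well because they did not pass the filter. Some genes that the rule picks are not reported here. Exon lengths and GC content came from GENCODE M21 (GRCm38) by Ensembl identifier and promoter windows from RefSeq GRCm38.p6, so no position is given in the authors' build.

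Alternatives were DESeq2 1.42.0, RLE scaling, no filter on low counts, only the 2 groups compared, removal of 23 lens and crystallin genes, each library left out, and RA-PBS animal 1 with animal 10 left out. That pair had been planned as the libraries richest in crystallins, but the files show RA-PBS animal 3 in that place. Added after seeing the data were the pair of animals 3 and 10, and fits without animal 10 that used DESeq2, 2 groups, a Y-linked covariate, a spline correction for GC and length, or left out 1 more library. The scripts were tested on simulated data.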

Additional observations from a re-analysis of the deposited data

Results flagged for a closer look

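Of 15 sets of 4 values (5 genes in 3 groups), 1 held a value far from the others. Calb1 in O2-IC100 animal 10 was at 11.1 CPM against 87.6 to 96.8 CPM in animals 9, 11 and 12, and its gap to the nearest of them was 0.893 of the whole range, above Dixon's 95% critical value for 4 samples. Chance marks about 1 in 20 such sets. This is the library in which crystallin genes took 58.98% of the counts (exact 95% binomial interval 58.96 to 59.00, counting error only), and the other 4 genes were lowest there too.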

How the results depend on the processing

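Genes called in O2-PBS vs RA-PBS numbered 133, and 412 with DESeq2, 867 in the 2 groups alone, 968 without animals 1 and 10, 1343 without animals 3 and 10, and 1169 with DESeq2 without animal 10. In O2-IC100 vs O2-PBS they were 0, 113 (DESeq2), 789 (2 groups without animal 10), 282 (without 1 and 10), 274 (without 3 and 10) and 395 (DESeq2 without animal 10). In O2-IC100 vs RA-PBS they were 0, 285 (DESeq2), 2 (no filter), 18 (2 groups without animal 10), 315 (without 1 and 10), 299 (without 3 and 10) and 560 (DESeq2 without animal 10). Leaving out 1 library gave 32 to 1046, 0 to 158 and 0 to 261, and each highest count came without animal 10. Of the 5 horizontal cell genes 1, Calb1, was called in O2-PBS vs RA-PBS by the 2 groups alone, and without animal 10 also by DESeq2, without animal 3, with the GC and length correction and with the Y-linked covariate (0 to 1 when leaving out 1 library). It was called in 15 of 31 distinct alternatives. The other 4 genes were called in none, nor was any in the other comparisons. Changes of sign were among uncalled values. Lhx1 in O2-IC100 vs O2-PBS was at 0.11 (2 groups without animal 10), 0.12 (without 1 and 10), 0.11 (without 3 and 10), 0.11 (DESeq2 without animal 10) and 0.25 (GC and length), and Onecut2 there at 0.087 (GC and length). Onecut1 in O2-PBS vs RA-PBS was at 0.014 (without 1 and 10), 0.046 (without 3 and 10) and 0.14 (Y-linked covariate). Without 1 and 10, O2-IC100 vs RA-PBS gave 0.074 for Lhx1 and 0.025 for Calb1. Leaving out 1 library, alone or with animal 10, spanned -0.51 to 0.24 for Lhx1, -0.038 to 0.59 for Calb1 and -0.17 to 0.53 for Gja10 in O2-IC100 vs O2-PBS, -0.19 to 0.082 for Onecut1 in O2-PBS vs RA-PBS, and -0.94 to 0.074 for Lhx1 and -0.69 to 0.025 for Calb1 in O2-IC100 vs RA-PBS. The cause of these changes was not tested. Gja10 rested on the fewest counts, 24 to 74 outside animal 10. No paired analysis was possible because each animal number belongs to 1 mouse and is shared by no groups.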
